A study of Homo sapiens with 36 samples.

Results

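NEUROG2 was set against GFP in MRC-5 cells that had all received the same pair of small molecules, at the earliest time sampled. MRC-5 is an established fibroblast line from human fetal lung. NFD cells carried a lentivirus for HA-tagged NEUROG2 and received 10 µM forskolin, which activates adenylyl cyclase, and 1 µM dorsomorphin, which inhibits BMP type I receptors and AMPK. FD cells carried a GFP lentivirus and received the same molecules at the same doses, and both groups were kept in neuron induction medium, so by the labels they differ in the virus alone. RNA was taken 0.5 days post treatment (DPT). The cells were infected first and received the molecules later, so NEUROG2 had been present for longer than the molecules at the first time. For reference the text also gives N cells, with the NEUROG2 lentivirus in neuron induction medium without the molecules, and GFP cells, with the GFP lentivirus and no molecules. The medium of the GFP cells is given in conflicting ways, as serum medium in one label and as neuron induction medium in the protocol. Each group is 3 libraries, out of 36 libraries in 12 groups for 4 conditions at 3 times, and the labels do not say whether the 3 are separate cultures. The genes compared are the rows that the authors marked as tested (status OK) in both the NFD and the FD table at 0.5 DPT, joined by symbol and locus. There were 12883 such genes of 23146 in each table, ranked by log2((NFD + 1)/(FD + 1)) on FPKM, that is, the authors' fragment density scaled for transcript length and library size, with 1 FPKM added to each side.

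NEUROG2 is a basic helix-loop-helix transcription factor with proneural activity. It pairs with E proteins such as TCF4 and binds E-box sequences in DNA. In the embryonic nervous system it starts a cascade that includes other helix-loop-helix factors, switches on Notch ligands that hold back neighbouring cells, and drives progenitors out of the cell cycle. ID proteins oppose it by capturing E proteins, and BMP signalling induces ID genes. Forskolin raises cAMP, which activates PKA and the transcription factor CREB.

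The deposited tables hold 1 FPKM per group of 3 libraries and no comparison of NFD with FD. The difference between them therefore has no error and no p-value here, and a gene is called higher or lower in NFD cells only where that log2 difference was at least 1 in size, a 2-fold difference with 1 FPKM added. The words rose and fell are kept for the authors' deposited tables, which test each condition against GFP cells of the same time at a q-value of 0.05. If the 3 libraries of a group are technical replicates, those q-values measure technical spread only. The number of reads per library is not given in these tables, so depth and the precision it gives are unknown. All 10 fibroblast markers were above 1 FPKM in both groups, between 21.2 and 2052 FPKM in NFD cells and between 35.3 and 3219 FPKM in FD cells. Their summed level was 4336 FPKM in NFD cells and 5726 FPKM in FD cells. Of 11 neuron markers, DCX, ELAVL3, ELAVL4, NEFL, NEFM, RBFOX3, STMN2 and SYN1 were below 1 FPKM in both groups. The summed level of the 11 was 192 FPKM in NFD cells and 426 FPKM in FD cells, nearly all of it TUBB3, which fibroblasts also express.

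NEUROG2 itself (GRCh37, chr4:113434671-113437328) could not be compared by value. The NFD table marks it as having too many fragments to quantify and lists it at 0, at 0.5 DPT and at both later times. It was measured at 12.7 FPKM in FD cells, 2616 FPKM in N cells and 36.7 FPKM in GFP cells. The delivery of the transgene to NFD cells is thus read from the status flag and from the virus label, not from a level.

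NFD and FD cells differed by at least 2-fold in 1708 genes, 13.3% of those tested. Of the 12883 genes, 832 were higher in NFD cells (6.46%) and 876 were lower (6.8%), around a median log2 difference of -0.02. These shares are the background for the list counts below. The middle of the distribution was narrow, with the 25th and 75th percentiles at -0.38 and 0.31 and the 5th and 95th at -1.16 and 1.17. The higher side reached further: 197 genes were at least 4-fold higher against 120 at least 4-fold lower, and 60 were at least 8-fold higher against 27 lower. The fold line passes through dense values. TAF11 lay just inside it at 1.00008 and PTDSS1 just outside at 0.999884 among the higher genes, and LPHN2 at -1.00026 and THRA at -0.999869 among the lower.

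**Figure D1:**
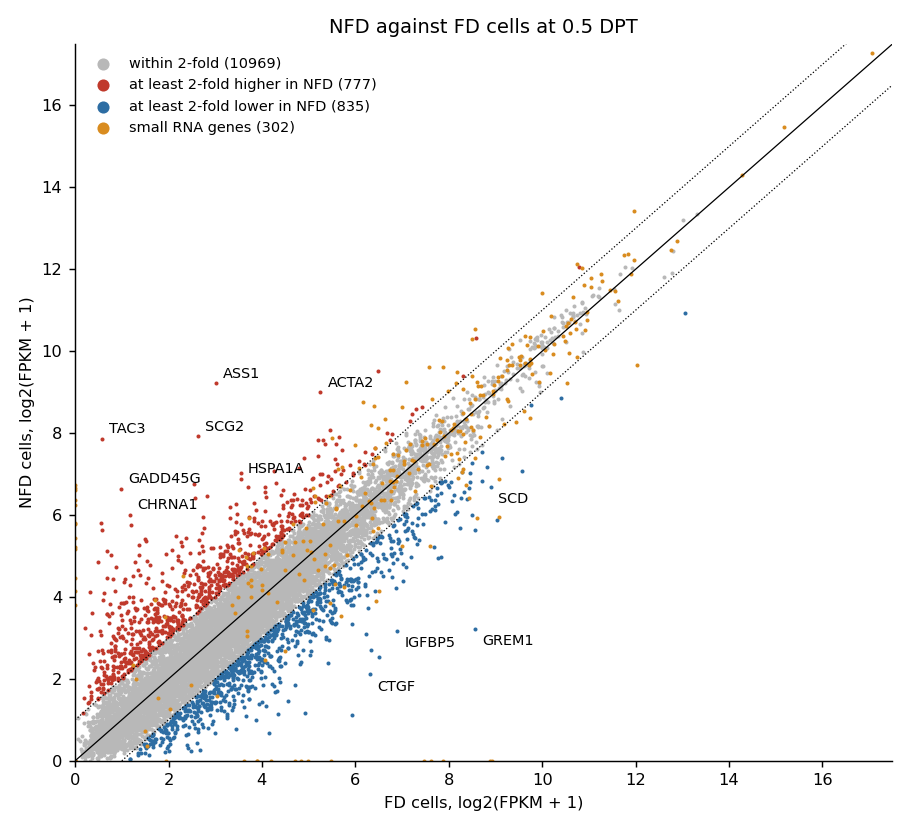
Each point is a gene tested in both tables at 0.5 DPT, with its level in NFD cells (vertical axis) against its level in FD cells (horizontal axis), both as log2(FPKM + 1). The solid line marks equal levels and the dotted lines 2-fold differences. TAC3 and ASS1 stand furthest above the line among the labelled genes and GREM1 and CTGF furthest below it, while the small RNA genes scatter along both axes because many are listed at 0 in one group.

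The authors' deposited tables also give a call for each of these genes against GFP cells. Those calls use the same NFD and FD levels that chose the genes and share the GFP libraries, so the counts are a description only. Of the 832 higher genes, 747 rose and 3 fell in NFD cells, while 146 rose, 273 fell and 413 were not called in FD cells. Of the 876 lower genes, 14 rose and 781 fell in NFD cells, while 240 rose, 249 fell and 387 were not called in FD cells. Over all tested genes the deposited tables call 30.5% risen and 32.9% fallen in NFD cells, and 17.6% risen and 18.9% fallen in FD cells. A smaller class was called in opposite directions: 251 of the higher genes rose in NFD cells and fell in FD cells, and 198 of the lower genes fell in NFD cells and rose in FD cells.

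Small RNA genes aside, TAC3, ASS1 and GADD45G stood furthest higher in NFD cells. TAC3 (GRCh37, chr12:57403780-57410344), which encodes neurokinin B, had 232 FPKM in NFD cells, 0.480 in FD, 328 in N and 1.72 in GFP cells, a log2 difference of NFD over FD of 7.30. ASS1 (GRCh37, chr9:133320093-133376661), argininosuccinate synthase, had 592 FPKM in NFD cells, 7.03 in FD, 365 in N and 8.92 in GFP cells, a difference of 6.21. Both were high in each NEUROG2 group and low in each GFP-virus group. GADD45G (GRCh37, chr9:92219926-92221469), a growth-arrest gene and a known proneural target, had 98.6 FPKM in NFD cells, 0.981 in FD, 38.1 in N and 0.710 in GFP cells. SCG2 (GRCh37, chr2:224461657-224467217), the granin secretogranin II, had 241 FPKM in NFD cells, 5.17 in FD, 72.6 in N and 1.4 in GFP cells. In ASS1, GADD45G and SCG2 NFD cells stood above N cells as well, and in TAC3 they stood below them. The authors' deposited table calls SCG2 risen in FD cells too (log2 1.88, q = 0.000151), against 7.43 in NFD cells (q = 0.000151).

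RASL11B, a Ras-like GTPase, had 55.4 FPKM in NFD cells, 0.464 in FD, 70.3 in N and 1.07 in GFP cells. SSTR2, a somatostatin receptor, had 48.6 FPKM in NFD cells, 0.484 in FD, 14.9 in N and 0.148 in GFP cells. CHRNA1 (GRCh37, chr2:175612322-175629200), the alpha subunit of the muscle nicotinic acetylcholine receptor, had 63.4 FPKM in NFD cells, 1.25 in FD, 62.7 in N and 1.38 in GFP cells. RASL11B was higher and CHRNA1 about equal in N cells relative to NFD cells, whereas SSTR2 was lower in N cells. The log2 differences of NFD over FD were 5.27 for RASL11B, 5.06 for SSTR2 and 4.84 for CHRNA1. These 7 genes are the ones that the naming rule gives once its 8 small RNA genes (microRNA, small nucleolar and similar genes, taken by symbol), all listed at 0 in one group, are set aside. The next in order were SERPINI1 (4.56), the neuronal protease inhibitor neuroserpin, then MUSTN1, SUSD2, PTHLH, NNAT, RAB26, SCN7A and HES6 (3.87), a list chosen after these values were seen. SERPINI1 had 52.8 FPKM in NFD cells, 1.29 in FD, 16.3 in N and 1.44 in GFP cells. MUSTN1 and NNAT share their locus with TMEM110 and BLCAP, so their reads may be split.

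**Figure D2:**
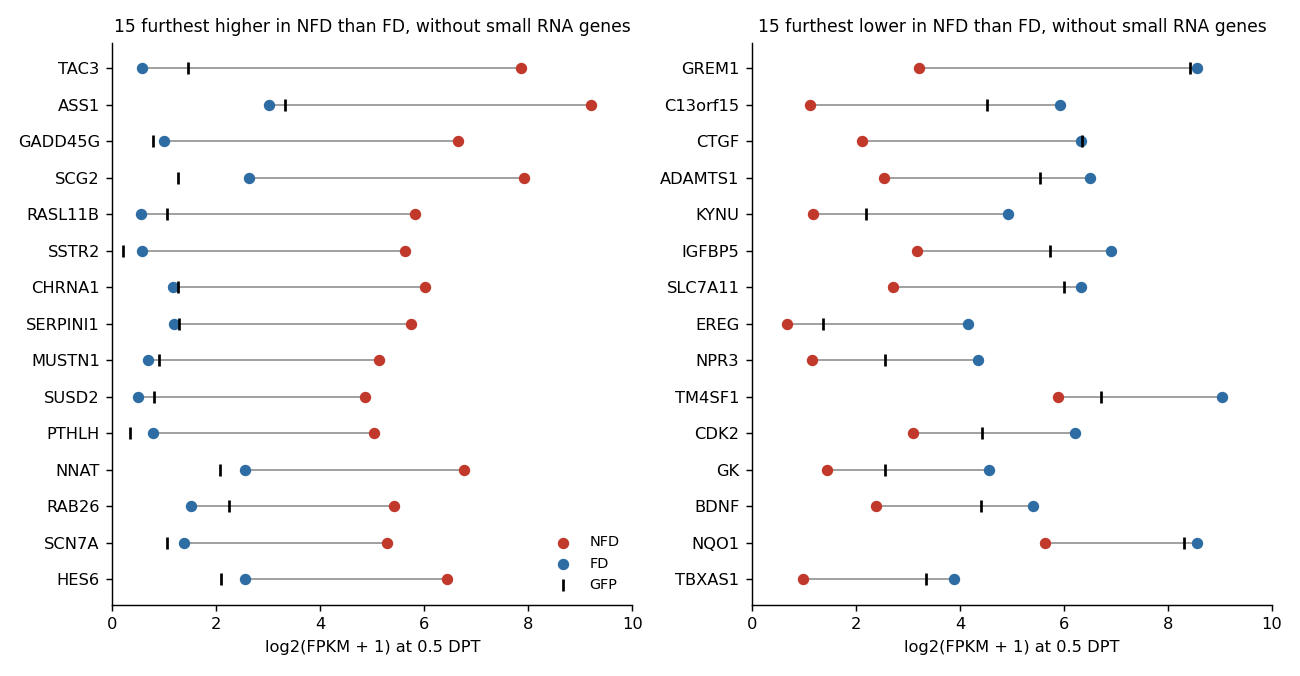
Levels at 0.5 DPT, as log2(FPKM + 1), of the 15 genes furthest higher (left) and furthest lower (right) in NFD than FD cells once small RNA genes are set aside. Red points are NFD, blue points FD and black ticks GFP cells. On the left NFD lies far right of both FD and GFP, as for CHRNA1 at 63.4 FPKM in NFD, 1.25 in FD and 1.38 in GFP cells. On the right FD lies above GFP except for CTGF, at 78.9 FPKM in FD and 80.8 in GFP cells.

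Several of these loci carry E-boxes just upstream of the start. The promoters shown are those with a CAGCTG among the leading higher genes named above that were matched to the promoter table. That of ATOH8, a helix-loop-helix factor, is shown for its CAGATG beside a CAGCTG. Each line gives the 250 bases before the start from RefSeq on GRCh38.p14, 5′ to 3′ on the gene's strand, with CAGATG, its reverse complement CATCTG and the palindrome CAGCTG in capitals.
SERPINI1 (chr3:167735471-167735720, plus strand): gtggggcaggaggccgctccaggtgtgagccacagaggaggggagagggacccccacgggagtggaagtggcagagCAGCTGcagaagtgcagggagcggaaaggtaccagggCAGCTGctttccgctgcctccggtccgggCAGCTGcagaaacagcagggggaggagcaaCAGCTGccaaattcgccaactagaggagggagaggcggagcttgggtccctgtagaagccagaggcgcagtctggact
CHRNA1 (chr2:174764473-174764722, minus strand): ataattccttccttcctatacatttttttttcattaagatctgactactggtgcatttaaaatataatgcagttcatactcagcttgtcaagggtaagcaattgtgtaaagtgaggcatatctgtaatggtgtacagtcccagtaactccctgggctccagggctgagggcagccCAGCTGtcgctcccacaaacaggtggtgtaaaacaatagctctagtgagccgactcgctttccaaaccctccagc
GADD45G (chr9:89604762-89605011, plus strand): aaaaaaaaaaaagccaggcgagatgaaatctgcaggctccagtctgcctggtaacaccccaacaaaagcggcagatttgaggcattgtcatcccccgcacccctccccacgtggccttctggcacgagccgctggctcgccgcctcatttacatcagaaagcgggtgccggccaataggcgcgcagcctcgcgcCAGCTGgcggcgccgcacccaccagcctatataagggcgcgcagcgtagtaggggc
MUSTN1 (chr3:52835020-52835269, minus strand): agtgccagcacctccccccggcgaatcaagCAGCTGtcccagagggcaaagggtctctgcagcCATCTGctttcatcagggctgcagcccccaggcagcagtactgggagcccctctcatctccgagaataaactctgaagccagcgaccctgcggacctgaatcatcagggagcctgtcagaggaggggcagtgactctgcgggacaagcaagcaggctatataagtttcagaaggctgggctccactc
HES6 (chr2:238240039-238240288, minus strand): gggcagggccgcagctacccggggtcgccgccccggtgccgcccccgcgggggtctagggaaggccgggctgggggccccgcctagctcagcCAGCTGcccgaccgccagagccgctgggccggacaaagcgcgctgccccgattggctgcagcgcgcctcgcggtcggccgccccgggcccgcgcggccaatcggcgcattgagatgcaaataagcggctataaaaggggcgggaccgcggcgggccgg
ATOH8 (chr2:85753741-85753990, plus strand): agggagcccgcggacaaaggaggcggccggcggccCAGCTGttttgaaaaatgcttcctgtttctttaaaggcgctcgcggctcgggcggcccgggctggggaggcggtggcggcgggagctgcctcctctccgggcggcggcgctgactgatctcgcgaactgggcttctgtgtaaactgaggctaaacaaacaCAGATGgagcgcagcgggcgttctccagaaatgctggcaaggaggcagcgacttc
SERPINI1 holds 4 copies of CAGCTG, beginning 174, 137, 108 and 78 bases before the start. CHRNA1, GADD45G and HES6 hold 1 each, beginning 75, 56 and 158 bases before it. MUSTN1 holds CAGCTG at 220 and CATCTG at 187 bases before it. ATOH8 holds CAGCTG at 215 and CAGATG at 55 bases before it. A match to 6 letters is common: of the 35116 promoters of 300 bases in the table, 17.9% hold CAGCTG and 14.7% hold CAGATG or CATCTG, searched on both strands. Those windows include 50 bases after the start and are not limited to tested genes. They are thus not matched to the 250 bases shown. The windows of TAC3, ASS1, RASL11B, SSTR2, PTHLH and SCN7A hold no match in these 250 bases. A comparison of the shares between higher and lower genes is void, because promoters were matched for 77 of the 100 furthest higher genes, 79 of the 100 furthest lower and 79.0% of tested genes, all under 80%.

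Among genes of the proneural cascade 5 of 10 tested members were higher in NFD cells and 0 were lower, with a median log2 difference of 1.13 against -0.02 over all genes. Over all tested genes 6.46% were higher and 6.8% lower. Of the 34 members of the list, 24 were not tested in both tables and 23 were under 1 FPKM in both groups. ATOH8 had 20.8 FPKM in NFD cells, 1.09 in FD, 24.7 in N and 1.04 in GFP cells. CBFA2T2, a transcriptional corepressor, had 14.1 FPKM in NFD cells and 2.82 in FD cells. The EBF factors, which act downstream of proneural proteins, were present at lower levels: EBF3 had 5.38 FPKM in NFD cells and 0.815 in FD cells, and EBF1 had 4.00 in NFD cells and 0.940 in FD cells. The E protein gene TCF4 had 39.7 FPKM in NFD cells and 20.8 in FD cells, a difference of 0.90 that stops short of the fold line. With 5 FPKM added in place of 1, EBF3 (0.84) and EBF1 (0.60) were no longer past the fold line and 3 members were higher. The authors' deposited tables call 9 of the 10 risen in NFD cells, and 2 risen and 1 fallen in FD cells. The shares of all tested genes are 30.5% risen in NFD cells, and 17.6% risen and 18.9% fallen in FD cells.

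The later neuronal factors were barely present at this time. NEUROD1 had 0.128 FPKM in NFD cells and 0.0112 in FD cells, NEUROD4 had 0.174 in NFD cells and was listed at 0 in FD cells, and INSM1 had 0.342 in NFD cells and was listed at 0 in FD cells. None of these 3 was tested in the FD table. Their log2 differences at 2 DPT were 3.65 for NEUROD1, 4.37 for NEUROD4 and 4.25 for INSM1, in libraries that the 0.5 DPT values do not use.

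Notch genes went both ways. LFNG, a glycosyltransferase that modifies Notch receptors, had 13.1 FPKM in NFD cells and 0.687 in FD cells. The ligand DLL4 had 1.84 FPKM in NFD cells and 0.257 in FD cells, and the co-activator MAML3 had 5.05 in NFD cells and 1.89 in FD cells. The receptor NOTCH3 had 2.49 FPKM in NFD cells and 12.1 in FD cells, and the Notch-binding protein DNER had 0.850 in NFD cells and 5.55 in FD cells. In all, 3 of 13 tested members of the Notch list were higher and 2 were lower, with a median of -0.11. Over all tested genes 6.46% were higher and 6.8% lower. DLL4 (0.38), MAML3 (0.54) and DNER (-0.85) were no longer past the fold line with 5 FPKM added, which left 1 higher and 1 lower. The ligands best known as NEUROG2 targets fell outside the count because the FD table did not test them: DLL3 had 17.2 FPKM in NFD cells and 0.0759 in FD cells, and DLL1 had 6.03 in NFD cells and 0.164 in FD cells. In the list of HES and HEY effectors, HES6, which antagonises HES1, had 85.1 FPKM in NFD cells, 4.89 in FD, 106 in N and 3.23 in GFP cells. BHLHE40, which that list also holds but which is not a HES or HEY gene, had 4.48 in NFD cells and 19.4 in FD cells. HES1 had 1.52 FPKM in NFD cells and 1.34 in FD cells.

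The ID genes are targets of the BMP pathway that dorsomorphin inhibits. Of these, ID1, ID2 and ID3 were higher in NFD than FD cells and highest in N cells. ID1 had 42.6 FPKM in NFD cells, 4.16 in FD, 517 in N and 8.62 in GFP cells. ID3 had 96.8 FPKM in NFD cells, 20.9 in FD, 160 in N and 5.56 in GFP cells, and ID2 had 20.7 in NFD cells, 5.21 in FD, 116 in N and 17.7 in GFP cells. For ID1 the authors' deposited tables give a log2 fold change against GFP of 2.30 in NFD cells, -1.05 in FD cells and 5.91 in N cells, each with q = 0.000151. The ligand BMP4 had 40.8 FPKM in NFD cells, 5.27 in FD, 66.1 in N and 8.02 in GFP cells. On the other side, the BMP antagonist GREM1 had 8.28 FPKM in NFD cells, 375 in FD, 13.3 in N and 344 in GFP cells, and FST, the activin and BMP antagonist follistatin, had 18.8 in NFD cells and 73.3 in FD cells. The BMP antagonist CHRD, not tested in the FD table, was on the higher side and is given below. The list as a whole had 4 higher (ID1, ID2, ID3 and BMP4) and 3 lower of 19 tested, with a median of 0.02. Of all tested genes 6.46% were higher and 6.8% lower.

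The tested genes of regulated secretion were mostly higher. Among granins, neuropeptides and their receptors and enzymes, 6 of 8 tested members were higher and 1 was lower, with a median log2 difference of 2.01. Over all tested genes 6.46% were higher and 6.8% lower. Of the 27 members found, 19 were not tested in both tables, and 0 of these were 2-fold higher or lower. In both groups 19 of the 27 were under 1 FPKM. Besides SCG2 and SSTR2, galanin (GAL) had 34.6 FPKM in NFD cells, 3.19 in FD, 46.2 in N and 3.76 in GFP cells. The prohormone-processing enzyme CPE had 33.8 FPKM in NFD cells and 5.70 in FD cells. Chromogranin B (CHGB) had 5.63 FPKM in NFD cells, 1.11 in FD, 0.540 in N and 0.0514 in GFP cells, so NFD cells had the highest level of the 4 groups. SSTR1 had 5.30 FPKM in NFD cells and 1.55 in FD cells. The exception was VGF, a neurotrophin-inducible secreted protein, with 0.542 FPKM in NFD cells and 4.21 in FD cells. The differences of CHGB (0.80), SSTR1 (0.65) and VGF (-0.73) were short of the fold line with 5 FPKM added, which left 4 higher and 0 lower.

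Receptor and guidance genes gave smaller counts, beside 6.46% higher and 6.8% lower over all tested genes. Of 6 tested neurotransmitter receptor genes, 3 were higher and 0 were lower: CHRNA1, the nicotinic subunit CHRNA5 at 5.09 FPKM in NFD cells and 0.966 in FD cells, and the kainate receptor GRIK2 at 26.3 in NFD cells and 10.1 in FD cells. CHRNA5 shares its locus with CHRNA3. Among axon guidance and adhesion genes 5 of 19 were higher and 1 was lower. The netrin receptor UNC5B had 32.0 FPKM in NFD cells and 2.85 in FD cells, the semaphorin receptor NRP2 had 82.2 in NFD cells and 26.1 in FD cells, and the repellent SEMA3A had 19.8 in NFD cells and 59.2 in FD cells. Of 13 tested synaptic vesicle genes 2 were higher, among them SYT1 (12.0 FPKM in NFD cells, 3.94 in FD), and 2 were lower, RAB3B (7.43 in NFD, 34.3 in FD) and SV2A (11.9 in NFD, 31.9 in FD). Of the 13 ion channel genes tested, 2 were higher and 1 was lower, with the inward rectifier KCNJ2 at 5.15 FPKM in NFD cells and 0.514 in FD cells. With 5 FPKM added, CHRNA5 (0.76), SYT1 (0.93) and KCNJ2 (0.88) were no longer past the fold line. The 4 lists then had 2 receptor, 2 guidance, 0 vesicle and 0 channel genes higher.

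Neuronal cytoskeleton and RNA-binding genes were mostly within 2-fold. Among 11 tested cytoskeletal genes 0 were higher and 1 was lower, and among 6 RNA-binding genes 0 passed the fold line in either direction. These counts stand beside 6.46% higher and 6.8% lower over all tested genes. The lower gene was TUBB3, neuron-associated beta-tubulin, with 186 FPKM in NFD cells, 420 in FD, 142 in N and 249 in GFP cells. The authors' deposited tables call it fallen in NFD cells (log2 -0.42, q = 0.000427) and risen in FD cells (log2 0.75, q = 0.000151). MAP2, a dendritic microtubule protein, had 1.73 FPKM in NFD cells and 0.517 in FD cells, a log2 difference of 0.85.

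**Figure D3:**
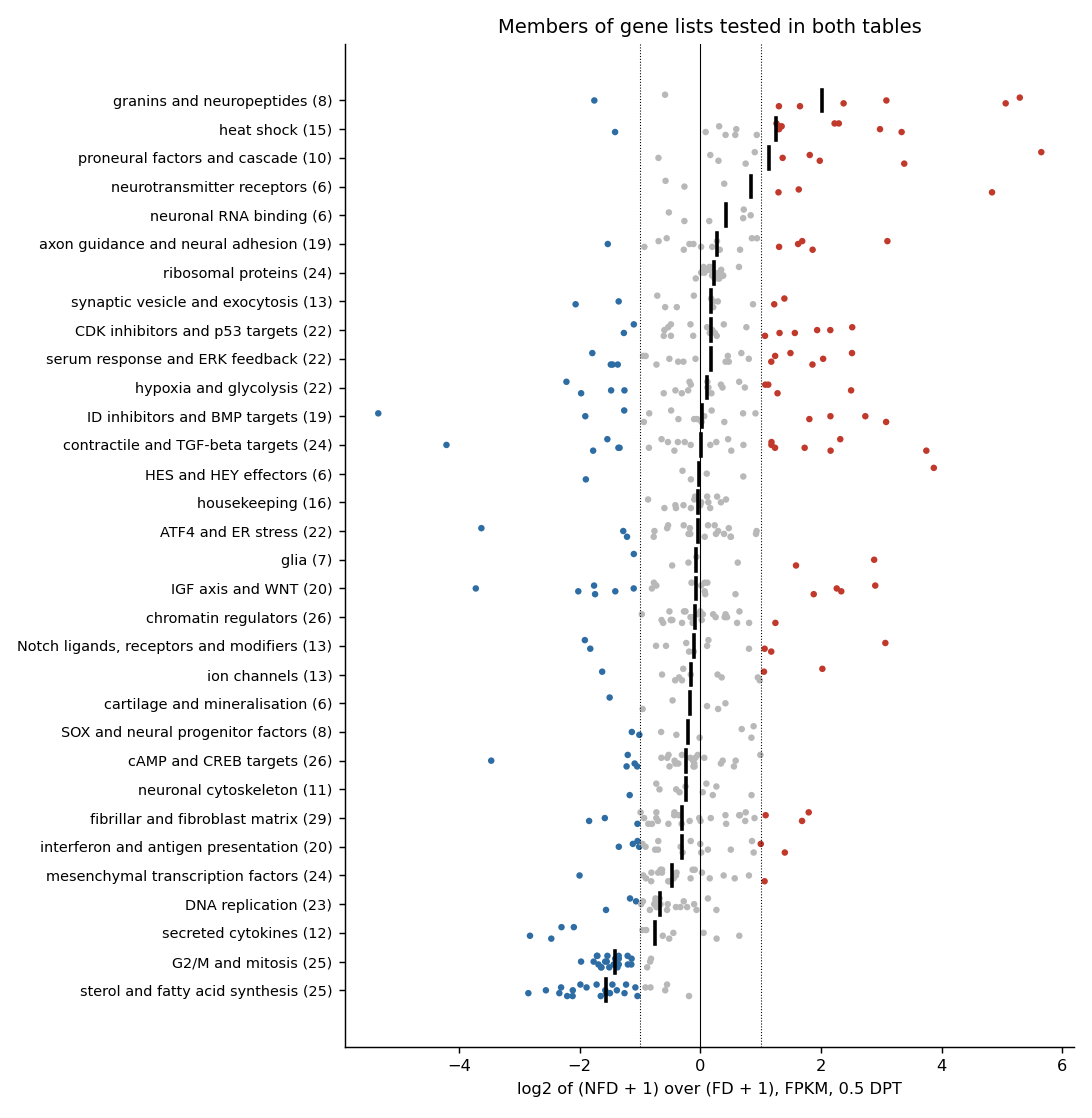
Each point is a tested member of a gene list, placed by its log2 difference of NFD over FD at 0.5 DPT with 1 FPKM added. Lists with at least 6 tested members are shown, with that number in parentheses, ordered by their median (black bar). Red points are at least 2-fold higher in NFD cells and blue points at least 2-fold lower. The sterol and mitosis lists lie wholly below 0, with medians of -1.56 and -1.41, and the granin list has the highest median at 2.01.

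More than the background share of heat shock genes were higher in NFD cells. Of 15 tested, 8 were higher and 1 was lower, against 6.46% and 6.8% of all tested genes. Of the 15, 14 lay above 0 and the median was 1.26. The co-chaperone HSPH1 had 172 FPKM in NFD cells, 36.0 in FD, 51.0 in N and 29.8 in GFP cells, and HSPA4L had 35.7 in NFD cells, 6.47 in FD, 14.7 in N and 6.75 in GFP cells. HSP90AA1, the inducible HSP90, had 355 FPKM in NFD cells, 147 in FD, 131 in N and 134 in GFP cells. In these genes the NFD group stood above all 3 others. The mitochondrial chaperonin pair HSPD1 and HSPE1, which share a locus, had 385 and 253 FPKM in NFD cells and 155 and 102 in FD cells. HSPA1A had 117 FPKM in NFD cells, 10.7 in FD, 12.0 in N and 7.44 in GFP cells, but it and HSPA1B are near-identical copies, so the split of reads between them is uncertain. The lower gene was CRYAB, a small heat shock protein, with 9.95 FPKM in NFD cells and 28.2 in FD cells. Without the molecules the same 15 genes had a median log2 difference of N over GFP of -0.01. There 1 was higher and 1 lower, beside 4.95% and 5.01% of all tested genes. The difference between these medians was not tested, since the tables give no replicate values.

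Growth-arrest genes and negative regulators of ERK signalling were higher in part. Among CDK inhibitors and p53 targets 6 of 22 were higher and 2 were lower, where 6.46% and 6.8% of all tested genes were. GADD45A had 225 FPKM in NFD cells and 38.5 in FD cells, the kinase PLK3 had 36.1 in NFD cells and 8.70 in FD cells, and the CDK inhibitor CDKN1C had 30.3 in NFD cells and 9.55 in FD cells. CDKN1A, another CDK inhibitor, had 627 FPKM in NFD cells and 703 in FD cells. In the serum response and ERK feedback list 6 of 22 were higher and 4 were lower. The feedback inhibitors SPRY2 (14.2 FPKM in NFD cells, 1.66 in FD), SPRY4 (7.96 in NFD, 1.47 in FD) and DUSP6 (12.4 in NFD, 2.26 in FD) were higher, as was MYC (17.3 in NFD, 5.50 in FD). CCND1, cyclin D1, had 63.7 FPKM in NFD cells and 180 in FD cells, and the AP-1 subunit JUN had 9.0 in NFD cells and 24.8 in FD cells. The authors' deposited tables call SPRY2 risen in NFD cells (log2 1.75) and fallen in FD cells (log2 -1.34), both at q = 0.000151.

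GREM1 (GRCh37, chr15:33010204-33026870) stood furthest lower in NFD cells, small RNA genes aside, with a log2 difference of -5.34. CTGF (GRCh37, chr6:132269316-132272518), a matricellular target of TGF-beta and YAP, had 3.32 FPKM in NFD cells, 78.9 in FD, 19.2 in N and 80.8 in GFP cells, a difference of -4.21. For these 2 genes FD cells were close to GFP cells. C13orf15 had 1.18 FPKM in NFD cells, 59.9 in FD, 3.47 in N and 22.0 in GFP cells, the secreted protease gene ADAMTS1 had 4.82 in NFD cells, 89.4 in FD, 3.04 in N and 45.5 in GFP cells, and KYNU, an enzyme of tryptophan breakdown, had 1.24 in NFD cells, 29.2 in FD, 0.774 in N and 3.57 in GFP cells. For these FD cells were above GFP cells and NFD cells below them. The authors' deposited tables call KYNU fallen in NFD cells (log2 -1.52) and risen in FD cells (log2 3.03), both at q = 0.000151. These 5 are what the naming rule gives beside 10 small RNA genes listed at 0 in one group.

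Next in order, chosen after the values were seen, came IGFBP5 (-3.72), SLC7A11, EREG, NPR3, TM4SF1, CDK2, GK, BDNF, NQO1 and TBXAS1. IGFBP5, an IGF-binding protein, had 8.03 FPKM in NFD cells, 118 in FD, 3.37 in N and 52.2 in GFP cells. The cystine transporter SLC7A11 had 5.51 FPKM in NFD cells, 79.6 in FD, 5.86 in N and 63.1 in GFP cells, and the quinone reductase NQO1 had 48.5 in NFD cells, 374 in FD, 36.2 in N and 317 in GFP cells. In these 3 genes both NEUROG2 groups were low. The EGF receptor ligand EREG had 0.603 FPKM in NFD cells and 16.7 in FD cells, TM4SF1 had 58.2 in NFD cells and 522 in FD cells, and the cell-cycle kinase CDK2 had 7.51 in NFD cells and 73.5 in FD cells. The reads of CDK2 may be split with PMEL at its locus, which was not tested. BDNF, a neurotrophin, had 4.20 FPKM in NFD cells and 41.5 in FD cells, although it overlaps the antisense gene BDNF-AS1 and the strand setting of the counting is not given in the sources used here.

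Sterol and fatty acid synthesis was lower as a group. Of 25 tested members 20 were lower and 0 were higher, against 6.8% and 6.46% of all tested genes. All 25 lay below 0 and the median log2 difference was -1.56. The desaturase FADS1 had 30.6 FPKM in NFD cells, 227 in FD, 22.8 in N and 101 in GFP cells, and MVD of the mevalonate pathway had 50.5 in NFD cells, 303 in FD, 24.6 in N and 120 in GFP cells. SCD, stearoyl-CoA desaturase, had 102 FPKM in NFD cells, 475 in FD, 76.9 in N and 267 in GFP cells. INSIG1, the sterol sensor that restrains SREBP, had 83.2 FPKM in NFD cells and 333 in FD cells. In FADS1, MVD and SCD the groups ran in the same order, FD highest, then GFP, NFD and N. The authors' deposited tables call 30.5% of all tested genes risen and 32.9% fallen in NFD cells, and 17.6% and 18.9% in FD cells. Of the 25 sterol and fatty acid genes they call 4 risen and 20 fallen in NFD cells, and 21 risen and 0 fallen in FD cells. One that rose in both was IDI1, isopentenyl-diphosphate isomerase, with 185 FPKM in NFD cells, 348 in FD, 81.6 in N and 128 in GFP cells.

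Genes of G2 and mitosis were lower in the same way. Of 25 tested 22 were lower and 0 were higher, beside 6.8% and 6.46% of all tested genes. All 25 lay below 0 and the median was -1.41. TPX2, a spindle assembly factor, had 7.56 FPKM in NFD cells, 32.7 in FD, 9.30 in N and 30.9 in GFP cells, and CCNB1, cyclin B1, had 21.8 in NFD cells, 76.8 in FD, 21.3 in N and 57.2 in GFP cells. The proliferation marker MKI67 had 3.65 FPKM in NFD cells and 7.20 in FD cells, a difference of -0.82 that stops short of the fold line. Replication genes differed less: 3 of 23 were lower (RRM2, CDT1 and CDC6), 0 were higher, and the median was -0.67. With 5 FPKM added, 16 of the 25 mitotic genes and 1 of the 23 replication genes (RRM2) were lower. The authors' deposited tables call 25 of the 25 mitotic genes fallen in NFD cells, and 11 risen and 0 fallen in FD cells. Of all tested genes they call 32.9% fallen in NFD cells, and 17.6% risen and 18.9% fallen in FD cells. In bulk RNA, fewer cells of a kind and less RNA per cell cannot be told apart.

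Among secreted growth factors and cytokines 4 of 12 tested genes were lower and 0 were higher, against 6.8% and 6.46% of all tested genes. Of the 12, 3 lay above 0, and the median was -0.76. HGF, hepatocyte growth factor, had 29.8 FPKM in NFD cells, 217 in FD, 29.2 in N and 90.1 in GFP cells, and FGF7 (4.11 in NFD, 27.3 in FD), LIF (1.48 in NFD, 11.2 in FD) and FGF2 (4.27 in NFD, 21.6 in FD) were the others. In the IGF and WNT list 4 of 20 were higher and 6 were lower. The lower side held IGFBP4, IGFBP5 and IGFBP6 together with SFRP1, an inhibitor of WNT ligands, at 166 FPKM in NFD cells and 559 in FD cells. The higher side held the ligands WNT2 (9.78 in NFD, 1.25 in FD) and WNT16 (18.7 in NFD, 2.89 in FD), the receptor FZD8 (5.61 in NFD, 0.797 in FD) and the WNT antagonist FRZB (21.1 in NFD, 1.97 in FD). With 5 FPKM added, FZD8 (0.87) was no longer past the fold line, and 3 were higher and 4 lower.

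Genes that cAMP induces through CREB were mostly within 2-fold at 0.5 DPT, and those past it were lower. Of 26 tested 5 were lower and 0 were higher, with a median of -0.24. Over all tested genes 6.8% were lower and 6.46% higher. At 1 and 2 DPT 10 and 12 of the 26 were lower and 0 were higher, with medians of -0.69 and -0.78. The shares of all tested genes at those times were 9.16% and 9.56% lower, and 8.13% and 8.55% higher. NR4A1 had 36.4 FPKM in NFD cells, 24.4 in FD, 1.04 in N and 0.504 in GFP cells, and the kinase gene SIK1 had 10.4 in NFD cells, 9.91 in FD, 2.87 in N and 0.486 in GFP cells. The authors' deposited tables call 19 of the 26 risen in NFD cells, beside 30.5% of all tested genes. In FD cells they call 25 of the 26 risen, beside 17.6% of all tested genes. The 5 lower genes were EREG, the phosphodiesterases PDE4B and PDE4D, SMOC1 and CRTC3, with PDE4D at 5.01 FPKM in NFD cells and 11.8 in FD cells. Of the 5, EREG alone was past the fold line with 5 FPKM added.

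Most fibroblast matrix genes were within 2-fold at 0.5 DPT. Of 29 matrix genes 3 were higher and 3 were lower, with a median of -0.31, where 6.46% and 6.8% of all tested genes were higher and lower. DCN, the proteoglycan decorin, had 84.1 FPKM in NFD cells and 304 in FD cells, and LUM, lumican, had 21.2 in NFD cells and 65.6 in FD cells. COL3A1 had 674 FPKM in NFD cells and 318 in FD cells, COL5A1 had 81.2 in NFD cells and 24.5 in FD cells, and FBLN2 had 10.0 in NFD cells and 2.18 in FD cells. Collagen I was close, with COL1A1 at 443 FPKM in NFD cells and 501 in FD cells. Of 24 mesenchymal transcription factors 1 was higher (FOXC1, at 0.58 with 5 FPKM added no longer past the fold line) and 1 was lower (PRRX2), with a median of -0.47. Contractile and TGF-beta genes split, with 7 of 24 higher, 5 lower and a median of 0.00. ACTA2, smooth muscle actin, had 509 FPKM in NFD cells, 37.0 in FD, 1066 in N and 50.7 in GFP cells, although its locus overlaps FAS. TGFB2 had 24.4 FPKM in NFD cells and 4.08 in FD cells, while CTGF, CNN1, SMTN and LTBP1 were among the lower genes.

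Lists of other lineages had few tested members, and over all tested genes 6.46% were higher and 6.8% lower. Among tested glial genes 2 of 7 were higher, MBP at 10.9 FPKM in NFD cells and 0.616 in FD cells and PMP22 at 74.6 in NFD cells and 24.2 in FD cells, and PDGFRA was lower. Among tested epithelial genes 3 of 5 were lower (KRT18, KRT8 and CLDN1), and with 5 FPKM added 0 were. In the skeletal muscle list none of the 4 tested genes passed the fold line. Of the 22 genes not tested in both tables, 3 were at least 2-fold higher and 0 lower. Genes tested only in the group in which they are high can count on that side alone, so this count is a description only. The summed level of the list, which includes these 3 genes, was 72.5 FPKM in NFD cells and 4.30 in FD cells. The 3 were TNNT2, cardiac troponin T, at 46.0 FPKM in NFD cells and 0.118 in FD cells, ACTC1, cardiac actin, at 13.6 in NFD cells and 0.0482 in FD cells, and the myosin light chain MYL4, at 3.10 in NFD cells and 0.0861 in FD cells. The muscle determination factor MYOD1 had 0.0892 FPKM in NFD cells and was listed at 0 in FD cells. Among reference lists, 0 of 24 ribosomal protein genes and 0 of 16 housekeeping genes passed the fold line in either direction, with medians of 0.23 and -0.04.

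The rule leaves out genes that the FD table did not test, and these include some of the largest differences. A total of 653 genes were tested in the NFD table and not in the FD table, with a median level of 1.08 FPKM in NFD cells and 0.115 in FD cells. Of these 270 were at least 2-fold higher and 0 lower, and the authors' deposited table calls 410 of them risen in NFD cells. SEMA6B, a semaphorin, had 61.7 FPKM in NFD cells and 0.109 in FD cells, IGFBPL1 had 60.3 in NFD cells and 0.123 in FD cells, and the matrix protein MGP had 25.9 in NFD cells and 0.0363 in FD cells. The synaptotagmin SYT7 had 37.6 FPKM in NFD cells and 0.205 in FD cells, and MYCL1 had 37.7 in NFD cells and 0.145 in FD cells. HEYL, a HES-related Notch effector, had 14.0 FPKM in NFD cells and 0.0133 in FD cells, and CHRD, the BMP antagonist chordin, had 10.9 in NFD cells and 0.0599 in FD cells. The reverse class held 77 genes, of which 23 were at least 2-fold lower, including CGA (0.109 FPKM in NFD cells, 7.71 in FD) and IL1B (0.385 in NFD, 4.99 in FD). Such genes passed only through the group in which they are high, so their counts follow from the rule.

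The difference was largely carried into the later times, in other libraries. Of the 832 higher genes 603 (72.5%) were at least 2-fold higher at 1 DPT and 507 (60.9%) at 2 DPT, where 8.13% and 8.55% of all tested genes were. Of the 876 lower genes 582 (66.4%) were at least 2-fold lower at 1 DPT and 449 (51.3%) at 2 DPT, where 9.16% and 9.56% of all tested genes were. A log2 difference of the opposite sign past 2-fold was seen in 10 and 26 of the higher genes and in 10 and 20 of the lower ones. CHRNA1 widened to 93.3 FPKM at 1 DPT and 104 at 2 DPT in NFD cells, against 0.570 and 0.313 in FD cells. SERPINI1 reached 111 and 176 FPKM in NFD cells, against 1.80 and 1.90 in FD cells, and HES6 reached 104 and 389 in NFD cells, against 9.54 and 14.6 in FD cells. HGF widened on the lower side, with 13.6 and 6.14 FPKM in NFD cells against 369 and 293 in FD cells.

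Some gene groups changed course over the 3 times. For comparison, 6.8%, 9.16% and 9.56% of all tested genes were lower at 0.5, 1 and 2 DPT. The G2 and mitosis list had median log2 differences of -1.41 at 0.5 DPT, -0.62 at 1 DPT and 0.19 at 2 DPT, and 22, 5 and 1 of its 25 members were lower. CCNB1 had 21.8, 4.58 and 3.88 FPKM in NFD cells at the 3 times, against 76.8, 9.13 and 6.84 in FD cells, so its level went down in both groups. The sterol list had medians of -1.56, -1.38 and -0.54, with 20, 17 and 4 of 25 lower, and SCD had 102, 68.2 and 24.9 FPKM in NFD cells against 475, 530 and 63.8 in FD cells. The matrix list ran the other way, with medians of -0.31, -0.74 and -1.47 and 3, 11 and 18 of 29 lower. ACTA2 had 509, 128 and 54.5 FPKM in NFD cells against 37.0, 49.2 and 70.4 in FD cells, and the sodium channel SCN7A had 37.8, 16.5 and 6.98 in NFD cells against 1.60, 10.9 and 18.5 in FD cells. At 2 DPT SCN7A was lower in NFD than in FD cells, while ACTA2 was below its FD level but within 2-fold. In N cells they stayed high at 2 DPT, at 934 FPKM for ACTA2 and 48.5 for SCN7A.

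**Figure D4:**
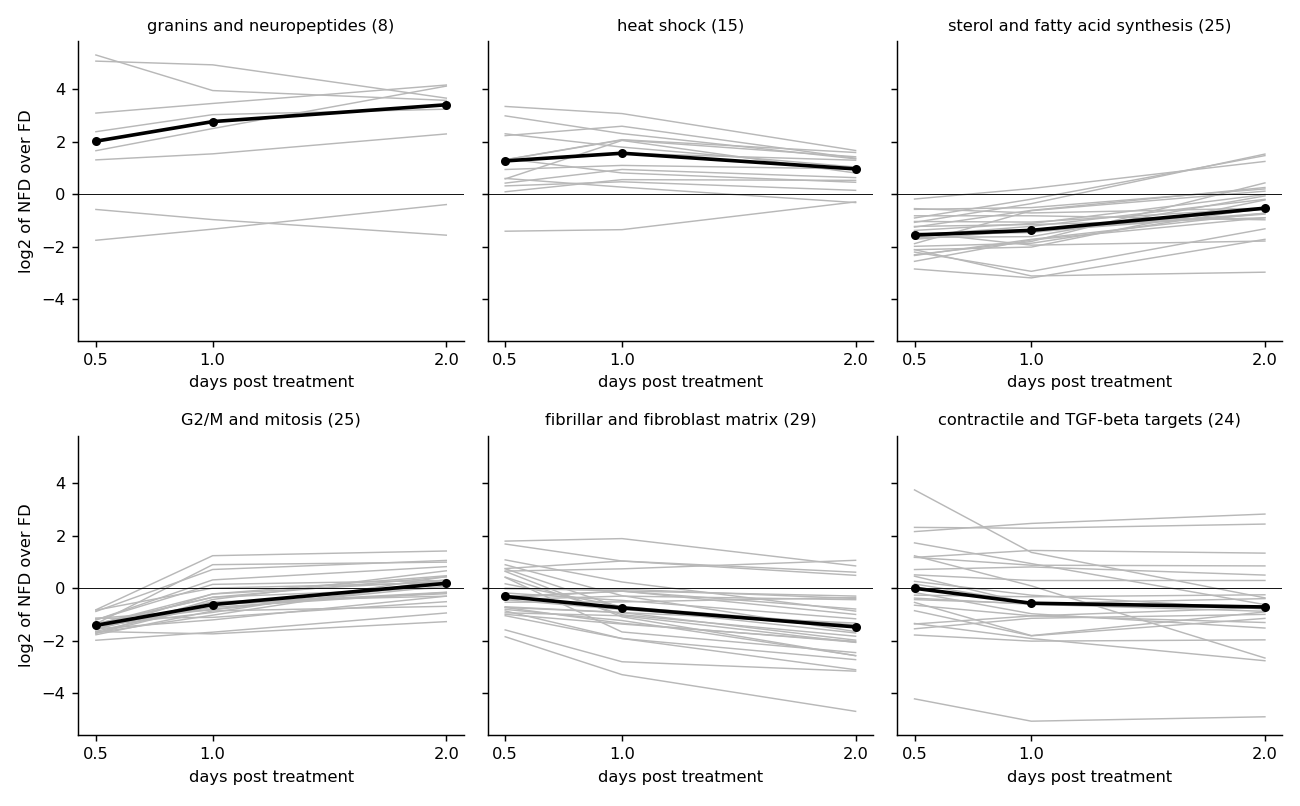
Log2 differences of NFD over FD cells, with 1 FPKM added, at 0.5, 1 and 2 days post treatment for 6 gene lists. Grey lines are genes tested at 0.5 DPT, with their number in parentheses, and the black line is their median. The mitosis median is -1.41, -0.62 and 0.19 at the 3 times, the matrix median -0.31, -0.74 and -1.47, and the granin median 2.01, 2.76 and 3.40.

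Without the molecules, in libraries other than those of NFD and FD, NEUROG2 gave similar directions for most of these genes. The labels do not say whether the cultures and infections were separate too. Of the 832 higher genes 424 (51.0%) were at least 2-fold higher in N than GFP cells, where 4.95% of all tested genes were, and they make up 66.5% of the 638 such genes. Of the 876 lower genes 449 (51.3%) were at least 2-fold lower in N than GFP cells, where 5.01% of all tested genes were, and they make up 69.6% of the 645 such genes. The sign was the same for 94.5% of the higher and 94.5% of the lower genes, and 12 and 11 were past 2-fold in the opposite direction. Counting both later times and N over GFP as well, 293 higher and 232 lower genes passed 2-fold each time. The sterol and mitosis lists had median log2 differences of N over GFP of -1.26 and -1.17. The medium of the GFP cells is uncertain, and its part in the N over GFP values was not tested.

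**Figure D5:**
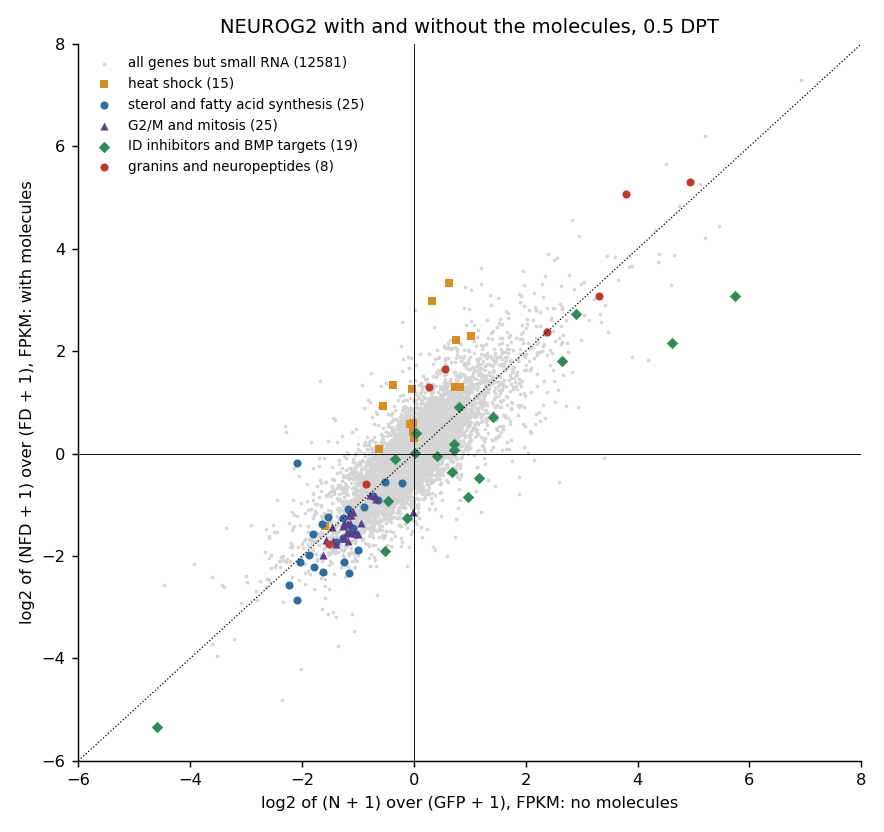
Log2 difference of NFD over FD cells (vertical axis, with the molecules) against that of N over GFP cells (horizontal axis, without them) at 0.5 DPT, with 1 FPKM added, for all genes but small RNA genes and for 5 lists. The dotted line marks equal differences. Heat shock genes lie above it around 0 on the horizontal axis, with medians of 1.26 and -0.01, and ID1 lies far below it at 3.08 and 5.75.

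Small RNA genes took many of the extreme places. Of 302 tested, 55 were higher and 41 were lower, beside 6.46% and 6.8% of all tested genes. The small RNA genes filled 8 of the 15 furthest higher and 10 of the 15 furthest lower places. Of these, 17 of the 96 past 2-fold had a q-value at or under 0.05 in either of the authors' deposited tables, against 1575 of 1612 other genes. At 1 DPT 27 of the 55 higher and 15 of the 41 lower kept their direction past 2-fold, while 9 and 8 were past 2-fold in the opposite direction. At 2 DPT 29 and 12 kept it, and 4 and 10 were opposite. None of them is described by name.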

How the data were processed

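Total RNA of MRC-5 cells was made into stranded libraries and sequenced from 1 end, per the labels' protocols, although the label of the molecule reads genomic DNA. Per the submitters' processing notes, reads were processed with TopHat 1.4.1, Cufflinks 2.1.0 and Cuffdiff 2.1.0 on GRCh37 (hg19); the strand setting is not given in the sources used here. Per the file headers, the authors deposited 1 FPKM per group of 3 libraries, with a p-value and q-value of each condition against GFP. The deposited log2 fold change, in which some cells hold text errors, is the condition over GFP. GFP values are equal in all tables of a time, so NFD and FD values were set side by side as deposited.

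From these, log2((NFD + 1)/(FD + 1)) was computed with Python 3.11.15, numpy 2.4.6 and pandas 2.3.3 for rows with status OK in both tables, and figures were drawn with matplotlib 3.10.9. The computation was tested on simulated data. A gene counts as past the fold at 2-fold, and the authors' calls use q at or under 0.05. The smallest q in both tables is 0.000151. There is no test of NFD against FD, since the tables hold no value per library, and depth is unknown. Named genes are NEUROG2, the 15 furthest higher and 15 furthest lower with a minimum of 1 FPKM on the higher side and a locus spanning 300 bases or more, and list members past 2-fold first. A few list members within 2-fold, later neuronal factors and genes not tested in the FD table were named after their values were seen. The 38 lists hold 871 different symbols, of which 869 were found and 558 tested in both tables. The members and lists were chosen with earlier results of these data known. Alternatives changed the pseudocount, the filters, the fold, the scaling and the status rule. Promoters come from RefSeq on GRCh38.p14 and gene loci from the authors' tables on GRCh37. A few genes of these lists are not reported here by name.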

Additional observations from a re-analysis of the deposited data

How the results depend on the processing

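The 832 higher and 876 lower genes stayed within 1.5 times of these counts under most alternatives. The counts moved further with a pseudocount of 5 FPKM (463 higher, 427 lower), with a 1.5-fold line (1788 higher, 2052 lower) and with a 4-fold line (197 higher, 120 lower), as each construction implies. A pseudocount of 0.1 FPKM gave 1091 higher and 1297 lower, a minimum of 5 FPKM on the higher side 728 and 757, centring on the median 857 and 841, and any status 1148 and 960. Keeping only genes with the authors' q at or under 0.05 in either table left 769 and 823. Of alternatives chosen after seeing the data, leaving out small RNA genes left 777 and 835, and leaving out genes that share a locus left 599 and 692. For the 224 named genes, 135 of 672 alternative values moved by more than 1.5-fold. None reversed, but none could. A pseudocount cannot change the sign of a difference, and centring only removed a median of -0.02. With a pseudocount of 5 FPKM 56 of the 224 were no longer past the fold line (2 with centring). Among these 56 were SOX9, SOX12, GATA2, MATN3, MITF, FLT1, TEK, TET3 and TRIB3, besides those given with their lists. A list median could change sign only where its middle members lay near 0 or on both sides of it. None of 38 did under 76 alternatives. No paired analysis was possible because the tables give 1 FPKM per group of 3 libraries, and for the same reason no library could be left out. Depth limits every value near 0, such as the FD levels of TAC3 and SSTR2, by an amount that is unknown.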

Other observations

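Other gene lists had these counts past 2-fold between NFD and FD cells at 0.5 DPT, against 13.3% of all tested genes in either direction. In hypoxia and glycolysis 4 of 22 tested genes were higher and 4 were lower, with NDRG1 at 93.8 FPKM in NFD cells and 15.8 in FD cells, and the carbonic anhydrase CA12 at 1.83 in NFD cells and 12.2 in FD cells. In interferon response and antigen presentation 2 of 20 were higher and 4 were lower, with IFI6 at 49.6 FPKM in NFD cells and 18.2 in FD cells and IFIT1 at 9.73 in NFD cells and 26.4 in FD cells. In ATF4 and ER stress 0 of 22 were higher and 3 were lower (SLC7A11, CEBPB and TRIB3). Of 26 chromatin regulators 1 was higher, the methylcytosine dioxygenase TET3, at 4.22 FPKM in NFD cells and 1.20 in FD cells. Among SOX and progenitor factors 0 of 8 were higher and 2 were lower (SOX12 and SOX9). The motor and subtype list had 2 tested members, of which GATA2 was higher, at 8.71 FPKM in NFD cells and 2.81 in FD cells. In the cartilage list 1 of 6 tested genes was lower (MATN3), while 3 of the 17 not tested in both tables were at least 2-fold higher and 0 lower. These were COL10A1, which shares its locus with NT5DC1, at 41.4 FPKM in NFD cells and 0.303 in FD cells, MGP at 25.9 in NFD cells and 0.0363 in FD cells, and COMP at 1.85 in NFD cells and 0.00947 in FD cells. The summed level of the list, which includes these 3 genes, was 100.4 FPKM in NFD cells and 36.7 in FD cells. Counts of genes not tested in both tables, here and in the next lists, follow from the rule and are a description only. In the neural crest list 1 of 4 tested was lower (MITF) and 1 of 8 not tested was higher. In the endothelial list FLT1 was higher and TEK was lower of 3 tested, and 2 of 9 not tested were higher, and CD68, the single tested blood gene, was lower, at 20.7 FPKM in NFD cells and 63.4 in FD cells.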
